A study of Mus musculus with 6 samples.

Results

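Genomic regions that lay close to an end of a protein-coding gene and were recovered by both probe sets against the long noncoding RNA Tug1 numbered 625, out of 113114 merged regions in the whole data set. They were chosen from the peak lists of 4 pulldown libraries. Peaks that overlapped by at least 1 bp were merged, and a region was kept if it lay on chromosomes 1 to 19, held peaks of at least 1 even and at least 1 odd library but not of all 4, and had its centre within 2 kb of either end of a protein-coding gene span. Of the 6715 regions that met all but the last condition, 9.31% (95% exact binomial interval 8.62 to 10%) were near a gene end. Because presence in these lists chose the members, the values below describe them, and no value of the peaks themselves was tested.

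The groups were an even pulldown group (2 libraries) and an odd pulldown group (2 libraries), both from differentiated mouse podocytes of an immortalized line carrying temperature-sensitive SV40 T antigen, at passages 10 to 12. The cells were grown at 33 degrees and kept at 37 degrees for 10 days to differentiate. No genotype or drug separated the groups: they differed in which alternate members of a set of 48 biotinylated oligonucleotides along Tug1 were added to the chromatin. Each list was called against 1 of 2 input DNA libraries, which was input 1 for both replicates numbered 1 and input 2 for both replicates numbered 2, so a recovered region of even replicate 1 and odd replicate 1 shared its input. The labels give 1 immortalized line, do not say whether replicates were separate cultures, and peak lists carry no expression by which the podocyte label could be checked. Read depth is unknown from peak lists, and the intervals cover counting error only, since regions and genes are not independent replicates.

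Podocytes are the epithelial cells whose interlocking foot processes wrap the glomerular capillaries of the kidney. Tug1 is a long noncoding RNA found in both nucleus and cytoplasm, and chromatin isolation by RNA purification (ChIRP) uses probes complementary to such an RNA to recover the DNA crosslinked to it. Probes can also pair with DNA or with other RNAs, and for that reason the assay is run with separate probe sets that share no oligonucleotide. One end of a gene holds the promoter, where general transcription factors and RNA polymerase II assemble, and the other holds the site of RNA cleavage and polyadenylation.

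At 8 promoters, the peaks of 3 libraries of a member had at least 180 bases in common with the window from 250 bases before to 50 bases after an annotated start. These 8 are the promoters most fully covered by 3 libraries. The windows are shown for 6 of them, since those of Gm13272 and Gm13285 are identical to that of Gm13287. Also shown is the window of Mef2c, a partner of the PGC-1 coactivators, whose member of 2 libraries was centred 75 bp from its start. Sequences are from RefSeq, build GRCm38.p6 (the assembly of mm10), written 5′ to 3′ on the strand of the gene, with the bases covered by peaks of every library of the member in capitals.
Dhrs9 (chr2:69380212-69380511, + strand): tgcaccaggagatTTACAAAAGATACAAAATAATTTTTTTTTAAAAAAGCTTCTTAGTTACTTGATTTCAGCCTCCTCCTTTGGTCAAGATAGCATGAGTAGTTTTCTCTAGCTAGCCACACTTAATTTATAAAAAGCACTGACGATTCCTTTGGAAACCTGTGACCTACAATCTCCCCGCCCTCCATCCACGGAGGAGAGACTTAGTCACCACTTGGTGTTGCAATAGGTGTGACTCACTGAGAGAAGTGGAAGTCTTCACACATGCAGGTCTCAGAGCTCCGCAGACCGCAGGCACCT
Zmpste24 (chr4:121098161-121098460, - strand): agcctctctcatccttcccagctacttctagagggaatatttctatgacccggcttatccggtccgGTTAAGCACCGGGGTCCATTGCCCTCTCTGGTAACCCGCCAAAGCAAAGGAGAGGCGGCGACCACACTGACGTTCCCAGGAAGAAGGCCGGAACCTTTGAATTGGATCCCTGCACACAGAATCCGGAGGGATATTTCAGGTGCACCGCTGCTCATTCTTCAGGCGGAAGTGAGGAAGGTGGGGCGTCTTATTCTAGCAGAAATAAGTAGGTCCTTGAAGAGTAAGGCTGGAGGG
Ly75 (chr2:60383224-60383523, - strand): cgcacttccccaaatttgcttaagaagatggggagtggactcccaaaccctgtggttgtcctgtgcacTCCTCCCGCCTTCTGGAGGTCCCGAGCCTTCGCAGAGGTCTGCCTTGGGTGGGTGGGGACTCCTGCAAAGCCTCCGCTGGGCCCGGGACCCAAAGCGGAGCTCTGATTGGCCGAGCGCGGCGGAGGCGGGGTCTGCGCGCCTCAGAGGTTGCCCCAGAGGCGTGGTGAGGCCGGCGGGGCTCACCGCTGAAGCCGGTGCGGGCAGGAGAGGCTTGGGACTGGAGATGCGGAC
Gm13287 (chr4:88803004-88803303, + strand): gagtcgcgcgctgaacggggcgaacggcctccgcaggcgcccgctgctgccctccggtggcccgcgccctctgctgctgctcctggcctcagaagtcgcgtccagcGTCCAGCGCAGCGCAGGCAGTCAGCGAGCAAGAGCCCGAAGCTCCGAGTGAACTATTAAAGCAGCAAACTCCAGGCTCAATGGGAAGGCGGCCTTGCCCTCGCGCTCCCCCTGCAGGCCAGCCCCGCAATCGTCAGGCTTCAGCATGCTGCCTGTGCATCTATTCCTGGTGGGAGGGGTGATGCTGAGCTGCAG
Scpep1 (chr11:88955393-88955692, - strand): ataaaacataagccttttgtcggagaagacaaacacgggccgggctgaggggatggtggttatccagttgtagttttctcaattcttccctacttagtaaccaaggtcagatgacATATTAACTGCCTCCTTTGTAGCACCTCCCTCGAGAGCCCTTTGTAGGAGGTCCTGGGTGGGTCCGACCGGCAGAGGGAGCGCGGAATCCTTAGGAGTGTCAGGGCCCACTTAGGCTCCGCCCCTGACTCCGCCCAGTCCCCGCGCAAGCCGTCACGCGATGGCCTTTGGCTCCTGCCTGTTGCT
Myl4 (chr11:104550413-104550712, + strand): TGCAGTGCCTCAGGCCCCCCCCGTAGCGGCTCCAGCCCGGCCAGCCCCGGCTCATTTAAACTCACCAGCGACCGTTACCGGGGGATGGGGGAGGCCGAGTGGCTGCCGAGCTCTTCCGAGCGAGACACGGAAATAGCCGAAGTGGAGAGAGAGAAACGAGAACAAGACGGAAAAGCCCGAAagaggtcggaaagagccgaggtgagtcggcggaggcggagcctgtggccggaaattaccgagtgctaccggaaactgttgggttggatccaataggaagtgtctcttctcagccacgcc
Mef2c (chr13:83503784-83504083, + strand): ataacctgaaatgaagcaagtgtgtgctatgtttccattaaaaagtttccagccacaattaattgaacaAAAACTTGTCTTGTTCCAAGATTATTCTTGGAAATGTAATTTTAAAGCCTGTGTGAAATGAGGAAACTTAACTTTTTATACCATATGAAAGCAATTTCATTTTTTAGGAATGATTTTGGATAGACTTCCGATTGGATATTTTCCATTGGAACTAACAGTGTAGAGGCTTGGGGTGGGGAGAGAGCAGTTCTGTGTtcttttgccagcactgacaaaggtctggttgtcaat

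The window of Dhrs9, which codes for a retinol dehydrogenase, had 287 of its 300 bases in the stretch common to even replicates 1 and 2 and odd replicate 2. The deposited peak score there was 3100 in even replicate 1, 322 in even replicate 2 and 814 in odd replicate 2, and odd replicate 1 had no peak. The window is AT-rich, with 43.7% G and C, and holds a TATAAA and a GGGCGG match (either strand). Zmpste24, the protease that matures prelamin A, had 234 bases in common at scores of 3100, 240 and 122 in the same 3 libraries. Ly75, an endocytic receptor of dendritic cells also called DEC-205, had 232 bases in common and scored 3100 in even replicate 1, 3100 in odd replicate 1 and 1658 in odd replicate 2, with no peak in even replicate 2. Scpep1, a serine carboxypeptidase gene, had 185 bases in common at scores of 3100, 208 and 3100 in even replicates 1 and 2 and odd replicate 1.

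The Myl4 window, at the start of the atrial myosin light chain gene, was covered before the start but not across it, and belonged to a member whose nearest gene end was the start of Cdc27, a subunit of the anaphase-promoting complex. This was one of the 12 members of even replicate 2 and both odd libraries, with scores of 188 in even replicate 2, 3100 in odd replicate 1 and 110 in odd replicate 2 over 181 common bases. The window of Mef2c, a MADS-box transcription factor of muscle and neural crest, was covered over 195 bases by even replicate 1 and odd replicate 1, each at 3100, and by neither replicate 2. It had 35.7% G and C and a ratio of observed to expected CpG of 0.109, the lowest of the windows shown. Gm13287 belongs to a run of gene copies described below, some of which have identical promoter windows.

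Of the 625 members, 387 (61.9%) held peaks of 2 libraries and 238 (38.1%) of 3. Even replicate 1 had a peak in 552 members (88.3%), even replicate 2 in 182 (29.1%), odd replicate 1 in 338 (54.1%) and odd replicate 2 in 416 (66.6%). The most frequent combinations were even replicate 1 with odd replicate 2, at 191 members, even 1 with odd 1, at 135, and even 1 with both odd libraries, at 117. Among all 6715 regions of both probe sets but not of all 4 libraries, these combinations came in the same order, at 2166, 1626 and 1092 regions. The makeup by library is thus not particular to regions near gene ends. Even replicate 1 also had the longest list, with 40725 peaks against 26529, 28047 and 34968 in even replicate 2 and odd replicates 1 and 2. With the even replicate 1 list set aside, the rule found 182 members in the remaining 3. It found 551 when even replicate 2 was set aside, 415 for odd replicate 1 and 336 for odd replicate 2. These numbers follow from the rule, which then requires a peak of the other library of that probe set. They therefore restate the counts by library given above and add no separate evidence.

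**Figure D1:**
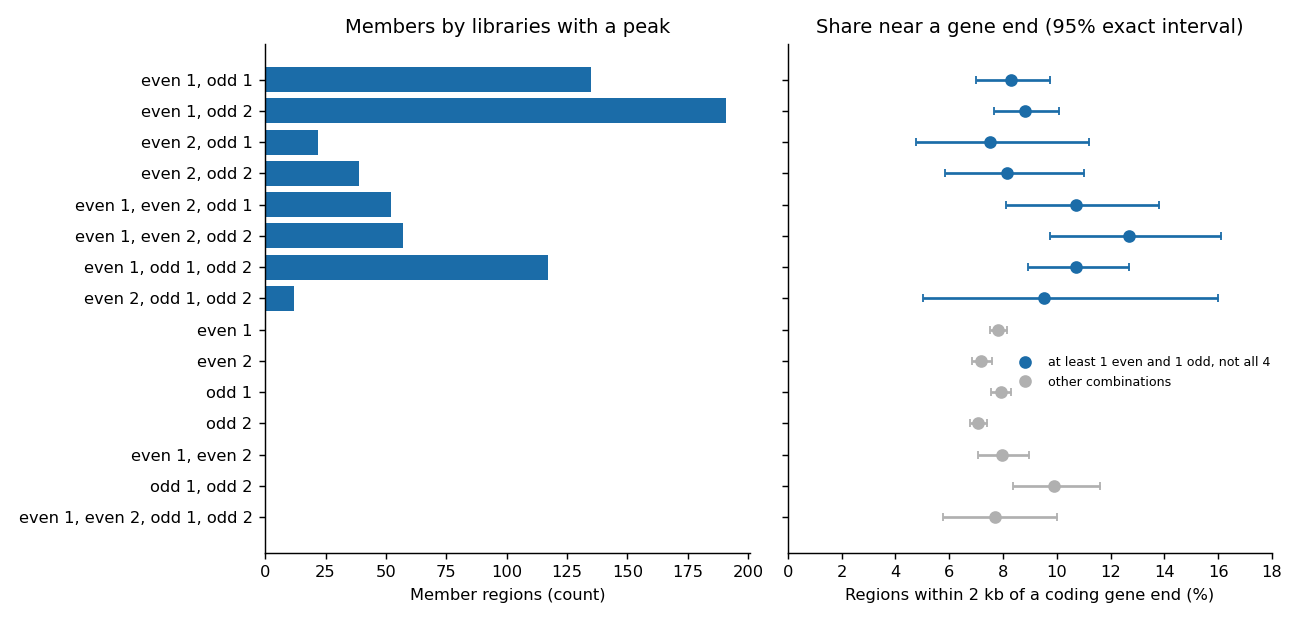
Left, number of member regions for each combination of libraries with a peak (even 1 is even replicate 1, and so on). Right, percentage of all regions of a combination on chromosomes 1 to 19 whose centre lay within 2 kb of a protein-coding gene end, with 95% exact binomial intervals; the 4 combinations of 3 libraries lay between 9.52 and 12.7%, and single libraries between 7.09 and 7.91%.

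The share of regions near a gene end was higher in the members' class (regions of both probe sets but not of all 4 libraries) than among regions of 1 library, by a small margin. It was 9.31% in the members' class, against 7.52% (interval 7.35 to 7.69%) of 94105 regions found in 1 library. It was 11.1% (9.76 to 12.5%) for regions of 3 libraries and 8.48% (7.69 to 9.33%) for regions of 1 even and 1 odd library. Regions of both libraries of a single probe set gave 8.56% (7.76 to 9.4%), nearly the same as regions of 1 even and 1 odd library. Regions of all 4 libraries, which also hold both probe sets, gave 7.69% (5.78 to 9.99%). Both intervals overlap that of the members' class, but the one for all 4 libraries also includes the 7.52% of 1-library regions. Among regions of 2 libraries, the higher share is thus not particular to those of both probe sets. Regions of 3 libraries always hold both probe sets, so their 11.1% has no counterpart from a single set. The combination of both even libraries with odd replicate 2 had the highest share, at 12.7% (9.74 to 16.1%), and both odd libraries without an even one stood at 9.89% (8.38 to 11.6%). Regions are not replicates, so no test was run on these differences.

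By chromosome, the share was higher in the members' class than among 1-library regions on 14 of 19 autosomes. The widest gaps were on chromosome 5 (13.1% against 7.33%), chromosome 4 (12.5% against 8.02%), chromosome 7 (14.5% against 10.2%) and chromosome 13 (10.4% against 6.13%). The order was the opposite on chromosomes 9, 11, 12, 16 and 18, for instance 4.65% against 6.52% on chromosome 16. The gaps on chromosomes 4 and 5 narrowed without the 3 stretches of gene copies described below, which were chosen for holding many members. The shares were then 9.69% against 7.16% on chromosome 5 and 9.16% against 7.75% on chromosome 4. Without these stretches the widest gaps were those of chromosomes 7 and 13. Chromosome 7 held most members, 66, and chromosomes 16 and 18 fewest, 10 each.

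**Figure D2:**
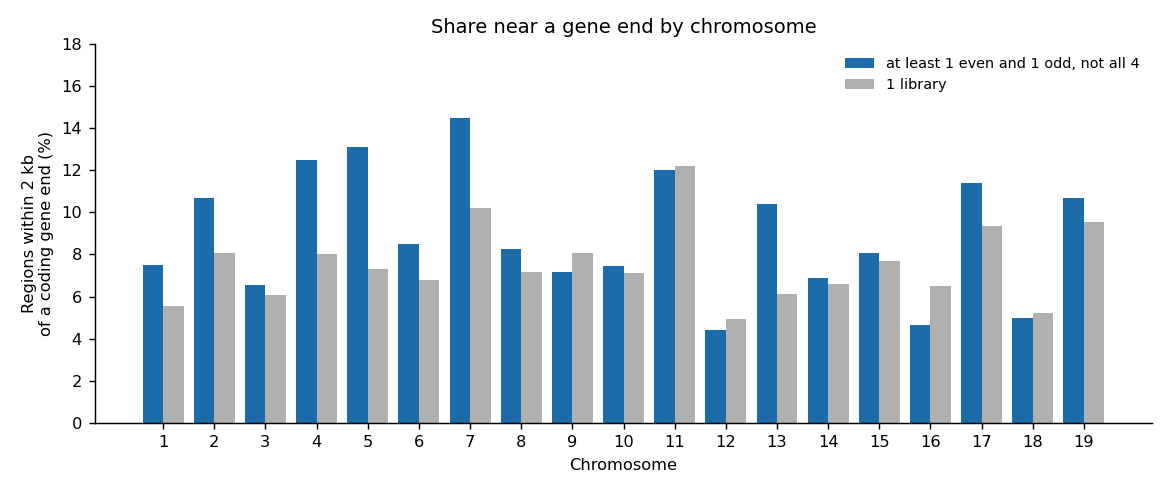
Percentage of regions whose centre lay within 2 kb of a protein-coding gene end on each autosome, for regions recovered by both probe sets but not by all 4 libraries (blue) and for regions of 1 library (grey). Blue bars are taller on 14 of 19 chromosomes. The gap on chromosome 5 is the widest, and without the 3 densest stretches of gene copies its bars would stand at 9.69% and 7.16%.

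Members were 220 to 1652 bp wide (median 488 bp), against a median of 330.5 bp for 1-library regions near a gene end; merging peaks of several libraries widens a region by construction. The stretch covered by all libraries of a member had a median of 247 bp, and in 6 members no base was common to all of them. The score cannot rank members in the replicate 1 lists, since 83.5% of member peaks in even replicate 1 and 100% in odd replicate 1 were at exactly 3100. Over all peaks of these lists the shares were 80.5% and 99.9%, so a score of 3100 does not set members apart. In even replicate 2 the median score of member peaks was 249, against 266 for its other autosomal peaks. In odd replicate 2 it was 302, against 221 for the others. Members scored up to 1362 in even replicate 2 and up to 2586 in odd replicate 2, and as low as 51.3 and 50.7. The score of 2586 was 801 bp before the start of Duxf3 (chromosome 10, 58233516 to 58234265), a double homeobox gene that lies in a tandem array, in a region that scored 3100 in both replicates 1.

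The centre of a member lay 5 to 1990 bp from the nearest gene end (median 854 bp), against a median of 908 bp for 1-library regions near an end. At the limit of the window, the last regions inside were at 1985 bp (Trappc3l) and 1990 bp (Gm51591 and Dedd2), and the first outside at 2001 bp (Carmil3), 2004 bp (Usp18) and 2005 bp (Rnf135). Which end was near had no part in the choice. Among 636 region-end pairs of genes with a RefSeq promoter entry, which gives the strand, 337 (53%, interval 49 to 56.9%) were at the start, against 51.8% (50.6 to 53%) for 1-library regions. The members at a start belonged to 2.01% of the 16457 genes of known strand, and those at the far end to 1.71%. Members divided almost evenly between the promoter end and the termination end of genes.

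Of the 337 region-end pairs of members at a start, 65 (19.3%, interval 15.2 to 23.9%) had the region centred within 250 bp of it. The share for pairs of 1-library regions was 14.5% (13.3 to 15.7%). At the far end of genes the corresponding shares were 9.36% (6.31 to 13.2%) and 12.2% (11.1 to 13.4%). In member pairs at a far end, the region was on the gene side of it in 174 of 299 (58.2%, 52.4 to 63.8%), against 49.7% (48 to 51.5%) of 1-library pairs. The side is read from that end alone, so a region beyond the opposite end of a short gene counts as on the gene side. The single highest bin was 500 to 1000 bp from the far end on the gene side, with 19.4% of member pairs (15.1 to 24.3%) and 12.8% of 1-library pairs (11.7 to 14%). These intervals treat each pair as independent. Pairs of the same region, which can enter for several genes or for both ends of a short gene, are not, nor are neighbouring regions at gene copies. Without the 3 stretches of gene copies described below, the share of starts within 250 bp was 18% (13.9 to 22.7%) against 14.6% (13.4 to 15.8%), and the share on the gene side of a far end was 55.1% (48.9 to 61.2%) against 49.8% (48.1 to 51.6%), so each pair of intervals overlapped.

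**Figure D3:**
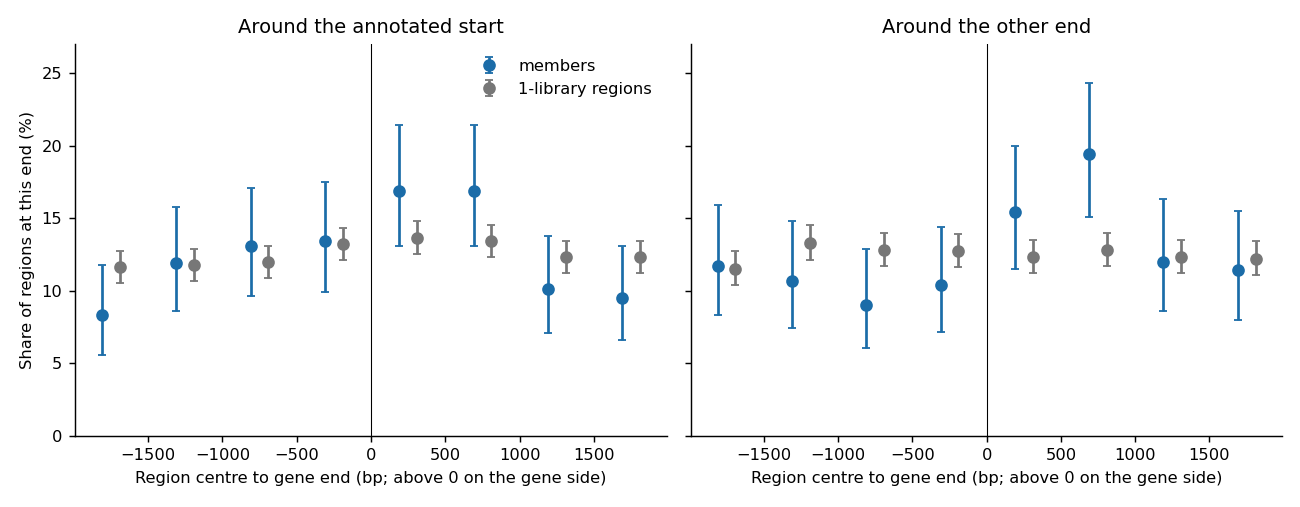
Percentage of region-end pairs in bins of 500 bp from the annotated start (left) and from the other end (right) of protein-coding genes, for members (blue) and 1-library regions within 2 kb of an end (grey), with 95% exact binomial intervals; positions above 0 lie on the gene side of that end. The highest point is 19.4% of member pairs at 500 to 1000 bp from the far end.

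A 300-base promoter window was overlapped by 81 members (13%, interval 10.4 to 15.8%), against 8.72% (8.07 to 9.4%) of 1-library regions near an end. The 1-library regions are narrower, and the part of width in this difference was not tested. The promoters with a start within 2 kb of a member centre, 339 windows of 308 genes, had a median of 58.7% G and C, against 58.7% near 1-library regions and 57% over all 20085 windows of coding genes on these chromosomes. A ratio of observed to expected CpG of at least 0.6, a usual mark of CpG islands, was found in 51% of them (45.6 to 56.5%), against 57.2% (55.5 to 59%) near 1-library regions and 48.9% of all. The CpG share near members lay between those of the other groups, and its interval included that of all promoters.

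Promoter motifs were searched on both strands of the same windows. The GC box GGGCGG, to which Sp1 family factors bind, was in 50.1% (44.7 to 55.6%) of windows within 2 kb of a member and in 47% of all windows. CCAAT, the site of NF-Y, was in 38.6% and 38.1%. TATAAA was in 13% and 12.7%, the E-box CACGTG in 9.73% and 7.89%, and the cyclic AMP response element TGACGTCA in 2.36% and 2.3%. CCGGAAGT, an ETS site, was in 5.01% and 5.28%, the palindrome of NRF1 in 7.37% and 6.55%, and the long YY1 site of ribosomal and other housekeeping promoters in 1.18% and 0.896%. Runs of 5 GA and of 5 CA repeats were in 0.885% and 2.65% of windows near members, and in 0.911% and 1.28% of all. Each of the 10 intervals for the windows near members included the share of all windows; that of the CA run, which was in 9 windows, reached from 1.22 to 4.98%. Near 1-library regions, the GC box was in 51.6% of windows (49.9 to 53.3%). Of windows overlapped by a member, 41.4% (30.9 to 52.4%) held a GC box. The share was 51.2% (47.4 to 55.1%) for windows overlapped by a 1-library region, and the intervals overlapped. CCAAT had the opposite order in these overlapped windows, at 42.5% and 37.5%. Overlap between motifs was not removed.

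Members were then set against genes. They lay at an end of 669 of 20665 protein-coding genes, or 3.24% of them, and members of 3 libraries at an end of 269 (1.3%). The share was 32% for 1-library regions. Genes with a member had a median length of 16090 bp, against 17491 bp for all. An end of more than 1 gene was within reach of 87 members. In 40 genes there were 2 or more members, and 67 had a member within 2 kb of both ends, which in a short gene can be a single region.

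The 20 members of 3 libraries ranked first by the lowest percentile of their scores had 3100 in even replicate 1 throughout. The first 15 tied at the percentile of that value in even replicate 1, 58.8, and were ordered by distance; since 3100 stands only at percentile 50 in the odd replicate 1 list, a region with a peak there cannot rank above them. As a result 19 of the 20 were regions of even replicates 1 and 2 and odd replicate 2. Of the 20, 9 were nearest to a start and 8 to a far end. They included Lta4h, the hydrolase that makes leukotriene B4 (chromosome 10, 93484410 to 93484881, 251 bp inside its far end), which scored 342 in even replicate 2 and 1095 in odd replicate 2. Lta4h also had a second member 380 bp before its start, at 93452847 to 93453185, with peaks of even replicate 2 at 334 and odd replicate 1 at 3100. Tmem19 had the highest even replicate 2 score of any member, 1362, with 454 in odd replicate 2. Il2rb, the beta chain of the interleukin 2 receptor, scored 762 and 1011 in even and odd replicate 2, Bod1, needed for chromosome biorientation, 718 and 351, and Dnase1, a secreted nuclease, 844 and 349. Hgfac, the activating protease of hepatocyte growth factor, scored 1075 and 359, and Psmc4, an ATPase subunit of the proteasome, 278 and 1153. Each score of the 20 stood at percentile 50 of its list or above, as the ranking required. The second member of Lta4h was not among the 20.

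**Figure D4:**
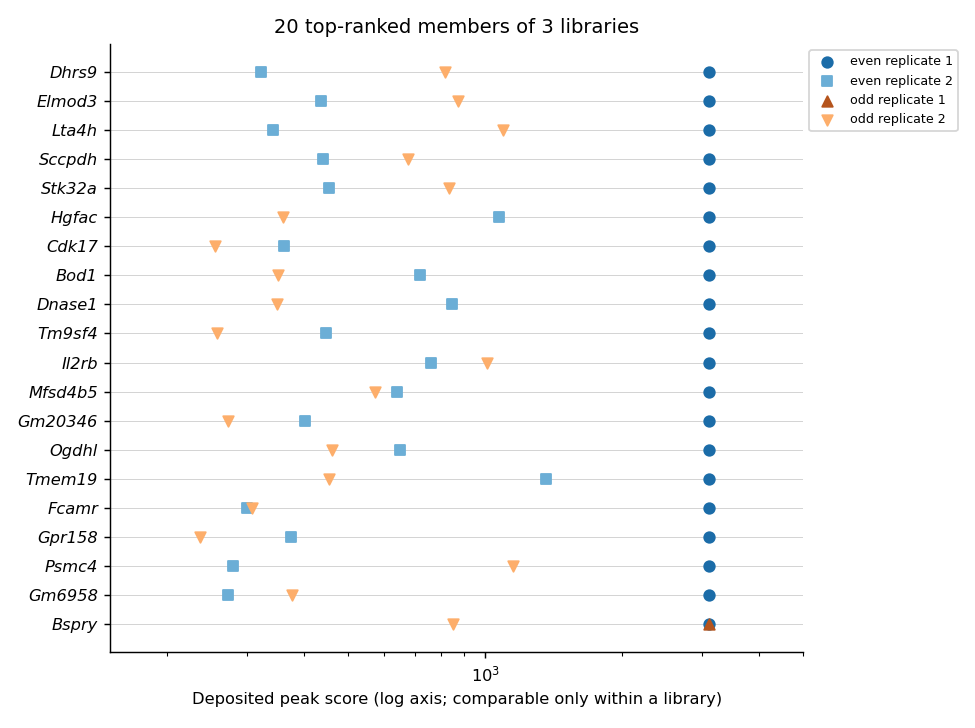
Deposited peak score, on a log axis, in each library with a peak, for the 20 members of 3 libraries ranked first; scores are comparable only within a library. Even replicate 1 is at 3100 in every row, while even replicate 2 spans 272 to 1362 and odd replicate 2 spans 236 to 1153.

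In the gene lists, regulators of transcription and chromatin had shares whose intervals all include that of all genes. The lists are selections and do not hold every gene of their kind. Taf6, Setdb1, Col9a2 and Col16a1, for instance, had members but were in none of the lists. Chromatin regulators had a member at 2 of 36 genes (5.56%, interval 0.68 to 18.7%), read against 3.24% of all coding genes. One was Hdac1, a histone deacetylase, with a region at chromosome 4, 129542261 to 129542885, centred 73 bp inside an end of the gene, at a score of 3100 in even replicate 1 and 106 in odd replicate 2. The other was Pcgf2, a Polycomb ring finger protein, 1837 bp inside its start, at 3149 in even replicate 1 and 130 in odd replicate 2. General transcription factors had 1 of 33, Gtf2b (TFIIB), 1546 bp before its start, with 607 in even replicate 2 and 3100 in odd replicate 1. None of 33 genes of RNA polymerase II and its elongation factors had a member, for which the interval reaches 10.6%. The splicing list had 1 of 37, the SR protein gene Srsf1, 286 bp inside its far end, at 3100 in both replicates 1.

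Among developmental and zinc finger genes, a single region, chromosome 6, 52204152 to 52204612, lay 205 bp inside the start of Hoxa5 and 476 bp beyond the far end of Hoxa6, and gave 2 of 39 Hox genes. It scored 3100 in even replicate 1 and 312 in odd replicate 2. Zinc finger protein genes had 14 of 453 (3.09%, 1.7 to 5.13%), 6 of them with a region of 3 libraries, such as Zfp689, 328 bp inside its start, at 3100 in both replicates 1 and 637 in odd replicate 2. Their share lies close to 3.24%, and the interval of the Hox list, from 0.627 to 17.3%, includes it.

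Histone genes had the highest share of any list, 8 of 67 (11.9%, interval 5.3 to 22.2%), but these came from 5 regions, since the genes are short and adjacent. They encode core histones made in S phase. Divergent H2ac8 and H2bc8 shared a member of even replicate 2 (191), odd replicate 1 (3100) and odd replicate 2 (296), at chromosome 13, 23571284 to 23571832. H3c4, H2ac7 and H2bc7 shared one of even replicate 1 (2948) and odd replicate 1 (3100), centred inside H3c4. H3c11 held one of the same libraries, at 2785 and 3100. The list did not hold H4f16, which had a member of even replicate 2 (207), odd replicate 1 (3100) and odd replicate 2 (245). In 1-library regions the list stood at 40.3%, against 32% of all genes. Histone coding sequences exist in many similar copies, so the values of single histone genes are uncertain.

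Podocyte genes had a member at 3 of 46 (6.52%, 1.37 to 17.9%). Foxc2, a forkhead factor of podocyte development, held a region of 3 libraries within its span (chromosome 8, 121116724 to 121117577), at 3100 in both replicates 1 and only 50.7 in odd replicate 2, the lowest member score of that list. Wt1, the zinc finger factor that maintains podocyte identity, had a region 1095 bp outside an end (chromosome 2, 105174531 to 105174887), at 3100 in both replicates 1. Synpo, an actin-binding protein of foot processes, had one 1249 bp outside an end, which was nearer to Myoz3 (1016 bp), at 3047 in even replicate 1 and 3100 in odd replicate 1. The 3 regions thus had peaks of both replicate 1 libraries, which share an input, and replicate 2 added only the weak peak at Foxc2. The podocyte share lies above 3.24%, with an interval that includes it. In 1-library regions the same list stood at 50%, against 32% of all genes.

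Genes of PGC-1 and its partners, regulators of mitochondrial biogenesis, had 3 of 35 (8.57%, interval 1.8 to 23.1%). Beside Mef2c, these were Ppard, a fatty acid sensing nuclear receptor, 854 bp inside its start with 3100 in even replicate 1 and 348 in odd replicate 2, and Ncoa1, a nuclear receptor coactivator, 516 bp inside its far end with 3100 and 660. Ppargc1a itself had none by this rule. Subunits of the respiratory chain and ATP synthase had 2 of 72 (2.78%), the complex I genes Ndufs6 and Ndufa6, both at 3100 in both replicates 1 and absent from both replicates 2. Mitochondrial dynamics genes had 2 of 26 (7.69%), Vdac3, an outer membrane channel, at 3100, 3100 and 285 in even replicate 1 and odd replicates 1 and 2, and Fis1, a fission factor, at 3026 in even replicate 1 and 461 in odd replicate 2. The intervals of these 3 lists all include 3.24%.

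Genes of actin regulation had 2 of 42 (4.76%, interval 0.582 to 16.2%), matrix genes 1 of 30 (3.33%, 0.0844 to 17.2%) and tubule, mesangial and endothelial genes 2 of 32 (6.25%, 0.766 to 20.8%), and all 3 intervals include 3.24%. Cttn, cortactin, which stabilizes branched actin, was one of the genes with a member at each end: chromosome 7, 144437027 to 144437332 (3100 in even replicate 1, 704 in odd replicate 2), and 144470031 to 144470834 (3100 in both replicates 1, 172 in odd replicate 2). Zyx, zyxin of focal adhesions, had one 1478 bp inside its start. Col5a1, a fibrillar collagen chain, was the matrix gene of the list, at 3100, 167 and 3100 in even replicates 1 and 2 and odd replicate 1. Slc5a2, the proximal tubule glucose transporter SGLT2, had 2 adjacent members of even replicate 1 and odd replicate 2, and the water channel gene Aqp1 had 1.

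The remaining lists had shares from 0 to 4.88%. Cell cycle genes had 2 of 41 (Cdt1, a replication licensing factor, and Pold1, a DNA polymerase subunit). The p53 pathway had 1 of 28 (Xpc, a DNA damage sensor), translation factors 1 of 40 (Eif3l), ubiquitin and proteasome genes 1 of 51 (Psmc4), Rab genes 1 of 57 (Rab3a, of synaptic vesicles) and circadian clock genes 0 of 20. Ribosomal protein genes had 2 of 81 (2.47%): Rps6, 575 bp beyond its far end, at 3100, 3100 and 994 in even replicate 1 and odd replicates 1 and 2, and Rps21. Solute carriers had 13 of 358 (3.63%, 1.95 to 6.13%). Receptor genes of smell, olfactory and vomeronasal, had 20 of 1452 (1.38%, interval 0.843 to 2.12%), below 3.24%. For 1-library regions their share was 13.8%, against 32% of all genes. Over all 23 lists, 83 of 3094 genes (2.68%) had a member, and 63 of 1642 (3.84%) when the receptor list was set aside.

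**Figure D5:**
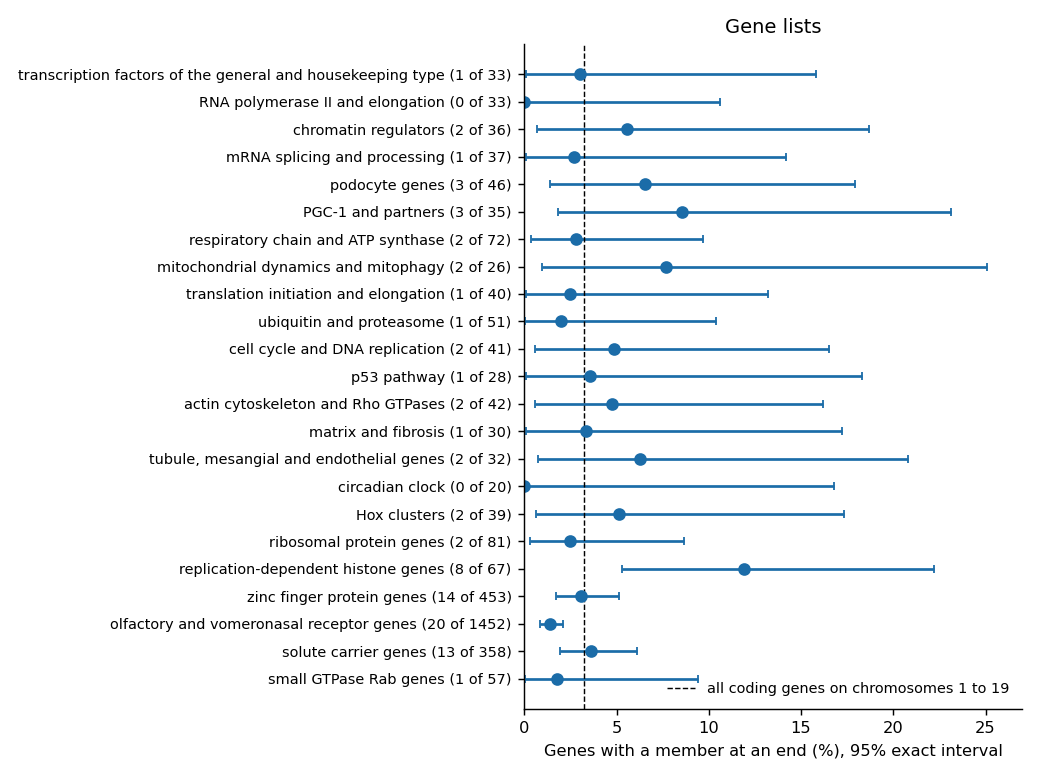
Percentage of the genes of each list with a member within 2 kb of an end, with 95% exact binomial intervals; the dashed line is the share of all protein-coding genes on chromosomes 1 to 19, 3.24%. Histone genes, 8 of 67 from 5 regions, lie above the line, and olfactory and vomeronasal receptor genes, 20 of 1452, below it.

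Several members stood where 2 genes meet. Bspry and Hdhd3 shared one centred 6 bp beyond the far end of Bspry, at 3100 in both replicates 1 and 851 in odd replicate 2. Psmg4, a proteasome assembly chaperone, had members at both ends, one of them 8 bp inside its far end and shared with Slc22a23. That one scored 3100 in both replicates 1 and only 56.4 in odd replicate 2. Tubb3, a tubulin of neurons, and the melanocortin receptor gene Mc1r shared one 103 bp inside the start of Tubb3, at 3100, 3100 and 138. Mrnip and Sqstm1, which codes for the autophagy receptor p62, shared one of both even libraries (3100 and 166) and odd replicate 1 (3100). Camta2, a calmodulin-binding transcription activator, and Inca1 shared 2 members, the nearer one 73 bp before the start of Camta2 at 3100, 3100 and 751. The remaining pairs named by the same rule were Sh3d21 with Eva1b, Acin1 with Cdh24, Tjap1 with Lrrc73, the divergent histone pair above, and Npff with Atf7 and Tarbp2.

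The densest groups of members were at tandem gene copies. The 3 stretches of 1 Mb concerned, chosen after their values were seen because they held 7 or more members each, contained 39 of the 625 members, and 24 of the 238 found in 3 libraries. Gene copies elsewhere, such as the Pramel genes of chromosome 5 and Duxf3, stayed in where these 3 stretches were left out. The values without them are therefore not free of gene copies. In the type I interferon cluster, whose products signal antiviral defence, 15 members lay between 88760309 and 88806492 of chromosome 4, at 13 genes that include Ifnz and copies such as Gm13272, Gm13283, Gm13285 and Gm13287. Odd replicate 1 had a peak in each of the 15, even replicate 2 in 14 and even replicate 1 in 13, all of them at 3100 in the replicate 1 lists. Odd replicate 2 had none in any of them, although it had a peak in 416 members elsewhere. In 12 of the 15 the libraries were even replicates 1 and 2 and odd replicate 1. The score in even replicate 2 was 534 at Gm13272, 673 at Gm13285 and 859 at Gm13287.

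The promoter windows of Gm13272, Gm13285 and Gm13287 were identical over 300 bases, so the sequence printed for Gm13287 holds for the others, and that of Gm13283 matched them at 297 of 300. Gm13279 and Gm13290 were likewise identical to each other over 300 bases, and Gm13289 matched both at 298. The run as a whole was not alike in these windows. Members overlapped 9 windows of the stretch, and 10 of their 36 pairs had at least 90% identity over at least 200 bases. Gm13290 and Gm13287, for instance, matched at 96 of 294 aligned bases (32.7%). How reads that match several copies were placed is not given in the sources used here, and its part in the number of members was not tested.

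The other dense stretches were neighbours on chromosome 5, where 23 members lay at 9 genes, among them Speer4c, Speer4d, Speer4e, Gm9758, Gm10354 and Gm17019. Speer genes encode glutamate-rich proteins of spermatogenesis. Here the libraries were different: odd replicate 2 had a peak in 22 of the 23, even replicate 2 in 20, even replicate 1 in 13 and odd replicate 1 in 2. Scores in even replicate 2 were low, at most 210, with a median of 104 in both stretches, and in odd replicate 2 the medians were 292 and 163. The interferon copies thus lacked odd replicate 2 and the Speer copies mostly lacked odd replicate 1. Without the 3 stretches, 586 members were left, and the share of regions near a gene end was 8.84% (8.17 to 9.55%) in the members' class, against 7.49% (7.33 to 7.66%) of 1-library regions.

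Few members overlapped genes of other kinds. A lncRNA gene was overlapped by 49 (7.84%), against 7.69% of 1-library regions near an end. Transcribed pseudogenes were overlapped by 9 members (1.44%, interval 0.661 to 2.72%), against 0.141% (0.0678 to 0.26%). Outside the 3 stretches, 3 of 586 members overlapped one (0.512%, 0.106 to 1.49%), against 0.114% (0.0491 to 0.224%), so that the intervals overlapped. Transfer RNA genes were overlapped by 2 members (0.32%, 0.0388 to 1.15%), against 0.0707% (0.0229 to 0.165%). The counts for snRNA genes were 2 members (0.32%, 0.0388 to 1.15%), against 0.0141% (0.000358 to 0.0787%), and for microRNA genes 1 member, at Mir5625 (0.16%, 0.00405 to 0.888%), against 0.0989% (0.0398 to 0.204%). In each of these the intervals overlap. Members are wider than 1-library regions, and the part of width in these overlaps was not tested.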

How the data were processed

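The measurements are peak lists of 4 ChIRP-seq pulldowns, 2 with even and 2 with odd probes. The submitters' processing notes name Bowtie2 2.1.0 and the build mm10. The peak caller was MACS, going by the names of peaks in the files, and each list was called against 1 input; its version and threshold are given by no source used here. Scores are as deposited by the authors. No source states their scale, many peaks share 3100, and it was read only within a list. A joined list of the whole series equals the 4 lists and was not used.

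Positions are 1-based on mm10. Genes (20665 protein-coding on chromosomes 1 to 19) came from a RefSeq table of GRCm38.p6, and strand and promoters from RefSeq entries, which matched 16457 of them. Members and gene lists were chosen with earlier results of these data known. Genes were named by rule: the 20 members of 3 libraries ranked first, up to 4 genes per list, genes with several members, and up to 10 shared pairs; further genes were picked after their values were seen. A planned comparison of even with odd libraries was not run, because presence in both chose the members. Ribosomal S6 kinases were removed from the ribosomal list afterwards. Alternatives were a reciprocal overlap of 50%, a score minimum, windows of 1 and 5 kb, any overlap, chromosomes left out and each library left out. The 3 densest stretches of gene copies were left out as an alternative chosen after seeing the data. Selection was tested on simulated data. Intervals are exact (Clopper-Pearson, 95%). Python 3.11.15, pandas 2.3.3 and scipy 1.17.1 were used.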

Additional observations from a re-analysis of the deposited data

How the results depend on the processing

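Of 99 recalculated values, 72 stayed within 1.5 times (counts) or within the 95% interval of the value reported (shares), and 27 moved. Those that moved came from the width of the window, the use of any overlap, and the library left out. With a window of 1 kb there were 362 members at 390 genes, 50 of them list genes; 5.39% of regions of both probe sets and 4.12% of 1-library regions were near an end. With 5 kb there were 1262 members at 1454 genes, 173 of them list genes; the shares were 18.8% and 15.9%, a difference of 2.91 percentage points against 1.79 as reported, and 56.6% of promoters near members reached the CpG ratio. Any overlap with the window gave 10.4% and 8.09%. Leaving out 1 library at a time gave 182 to 551 members, 177 to 609 genes and 17 to 78 list genes, the lowest each time without even replicate 1. These numbers of members follow from the rule, which then requires a peak of the other library of that probe set. The difference between the shares then ranged from 1.54 to 2.54 percentage points, the 1-library share from 7.48 to 7.77%, the share of promoters with a GC box from 36.4 to 53.7% and that with the CpG ratio from 46.5 to 57.2%. The share near an end stayed higher in the members' class in each of the 11 settings, and without the 3 densest stretches of gene copies the difference was 1.35 points. No paired analysis was possible because the values describe regions merged over all 4 lists and come from no test; the planned comparison of even with odd libraries was left out. Depth is unknown, and a deeper library can yield more peaks.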
